A study of Rattus norvegicus with 8 samples.

Results

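Complex I of the respiratory chain passes electrons from NADH to ubiquinone and pumps protons across the inner mitochondrial membrane. Its 7 mitochondrially encoded subunits, Mt-nd1, Mt-nd2, Mt-nd3, Mt-nd4l, Mt-nd4, Mt-nd5 and Mt-nd6, were followed here in RNA from the sinoatrial node, where the heartbeat starts. They were chosen by their Ensembl rat gene identifiers, whose symbols came with the selection and were not checked against an annotation, and are 7 of the 32285 genes in the count table. The identifiers, in that order, are ENSRNOG00000030644, ENSRNOG00000031033, ENSRNOG00000033615, ENSRNOG00000031053, ENSRNOG00000029707, ENSRNOG00000029971 and ENSRNOG00000029042. All 7 passed the filter on low counts that left 16313 genes to test.

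The animals were Dahl salt-sensitive rats (SS/JrHsdMcwiCrl), an inbred strain that becomes hypertensive when fed much salt. Control rats (4 libraries) ate chow with 0.4% NaCl for 11 weeks. HFpEF rats (4 libraries), a model of heart failure with preserved ejection fraction, ate chow with 8% NaCl for the same time. No group ate the high-salt chow without the disease model, so effects of salt, blood pressure and heart failure cannot be told apart. The labels state neither the rats' age and sex nor that each library came from its own rat, so the p-values speak only of the spread among the 8 libraries.

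The study looked for transcriptome differences in the failing heart's pacemaker, and the heart draws most of its energy from oxidative phosphorylation. The membrane arm of complex I is built around these 7 proteins, while its other subunits are encoded in the nucleus and imported. In mammals both strands of the mitochondrial genome are transcribed as long precursors that are then cut into separate RNAs. Of the mitochondrial protein-coding genes only Mt-nd6 is read from the strand opposite to that of the others, and Mt-nd4l and Mt-nd4 lie on a shared messenger RNA.

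Total expected counts ran from 31774820 to 38889395 per library. The count table carries no gene symbols and no Ensembl identifier could be matched to the reference gene table, so nuclear complex I subunits and cell type markers were not analysed here, and the labelled tissue was not checked against its markers. In tissue RNA, fewer cells of a type and less RNA per cell cannot be told apart. HFpEF replicate 1 held the highest normalised level of all 7 genes and stood apart from the other HFpEF libraries in 3 of them (Mt-nd1, Mt-nd4l and Mt-nd5), so results are also given without it.

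The summed share of the 7 genes differed between the groups by less than it varied within them. It was 4.67%, 4.48%, 5.05% and 5.20% of all counts in Control replicates 1 to 4, and 5.41%, 4.46%, 4.38% and 4.89% in HFpEF replicates 1 to 4. The highest and the lowest share were both in HFpEF libraries, and the groups overlapped. Control averaged 4.85% ± 0.330 and HFpEF 4.79% ± 0.470 (SD, n = 4 each), a difference of -0.0659 percentage points. That difference was smaller than the spread within either group. Without HFpEF replicate 1 it was -0.272 percentage points, also within the spread. Wilson 95% intervals reached at most 0.0072 percentage points either side of a library's share, so counting error was small beside the differences between libraries. These intervals cover counting error only, since reads without molecular identifiers are not independent molecules.

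Library size was set beside the share. The 3 libraries with the highest share, HFpEF replicate 1, Control replicate 4 and Control replicate 3, were also the 3 with the most counts, at 37180059, 36504423 and 38889395. The 2 lowest shares were in HFpEF replicates 3 and 2, which held 34840006 and 31774820 counts. The remaining libraries ran the other way. HFpEF replicate 4 had 34912426 counts and a share of 4.89%. Control replicates 1 and 2 held more counts, 35945522 and 36018918, and had lower shares, 4.67% and 4.48%. The part of library size in the share was not tested.

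**Figure D1:**
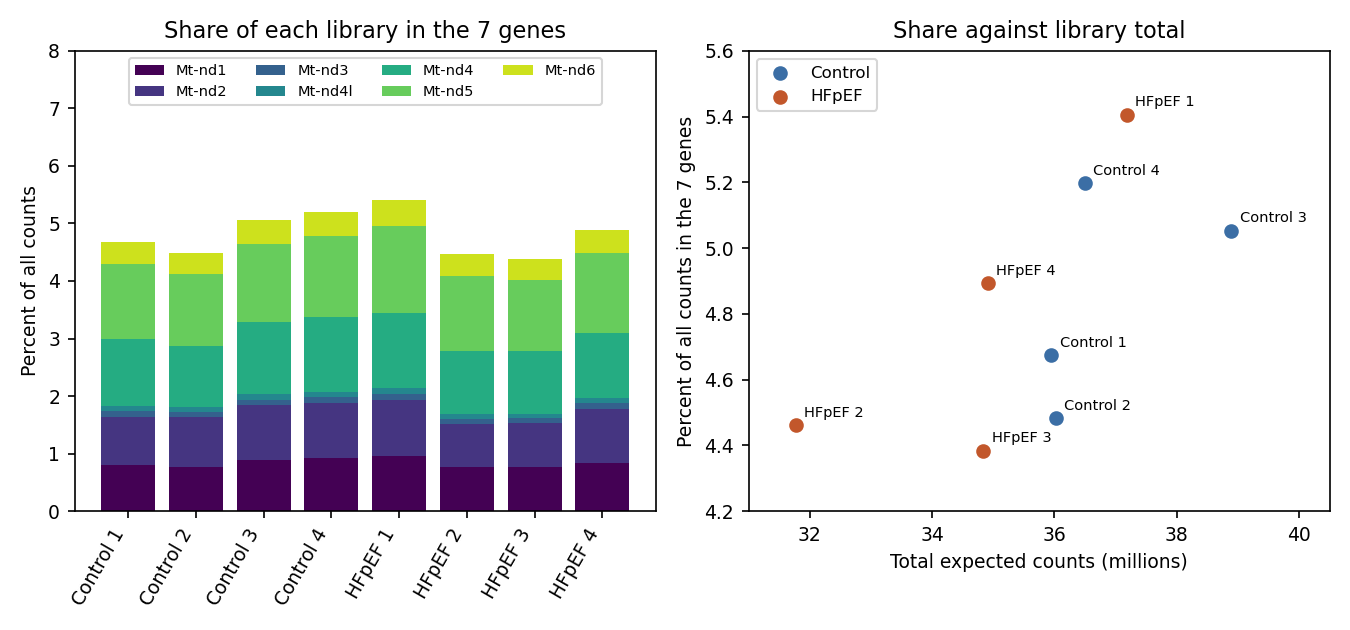
Left, percent of all expected counts in each of the 7 genes, stacked, for each library; right, their summed percent against the library's total expected counts, coloured by group. The summed share runs from 4.38% to 5.41%, and the groups overlap on both axes.

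Individual genes differed widely in their part of the library. Mt-nd5 took a mean of 1.34% of all counts over the 8 libraries, Mt-nd4 1.17%, Mt-nd2 0.879%, Mt-nd1 0.839%, Mt-nd6 0.398%, Mt-nd3 0.0956% and Mt-nd4l 0.0887%. By mean count Mt-nd5 ranked 6 and Mt-nd4l ranked 72 among all 32285 genes. These are shares of counts and not levels per length, because no gene lengths were used, so they do not order the genes by their number of RNA molecules.

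None of the 7 genes passed the test between HFpEF and Control, and every estimate was within 0.07 of 0 on the log2 scale. By edgeR's quasi-likelihood test over all tested genes, 0 of 7 passed a Benjamini-Hochberg adjusted p of 0.05, against 1.94% of all tested genes (316 of 16313), and a count of 0 among 7 genes does not stand apart from that background. At an unadjusted p under 0.05 there were 0 of 7, against 19.6% of tested genes, and DESeq2 and limma-voom also gave 0 of 7 at either threshold. In 0 of 7 did the HFpEF libraries lie wholly above or below the Control libraries in normalised CPM (counts per 1000000, scaled by TMM), where 12.5% of tested genes did. The median log2 fold change (HFpEF over Control) was -0.0028 for the 7 genes and -0.0041 for all tested genes. The 95% intervals of the 7 folds lay between 0.803-fold and 1.20-fold, so larger changes in either direction were outside every interval.

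Mt-nd1, the subunit at the joint between the membrane and matrix arms near the ubiquinone site, was almost level between the groups. Its normalised CPM were 7817, 7474, 8980.4 and 9365 in Control replicates 1 to 4, and 9829, 7715, 8008 and 8019 in HFpEF replicates 1 to 4. HFpEF replicate 1 was the highest library, and the other HFpEF libraries fell among the Control libraries. The means were 8409 ± 907 and 8393 ± 968 (SD, n = 4 each), and the log2 fold change was -0.0028 (standard error 0.11, edgeR adjusted p = 0.992). Mt-nd3, a small subunit with a loop at the same joint, stood at 919, 942, 1014 and 994 CPM in Control and at 1023, 918, 872 and 960.1 CPM in HFpEF. It varied least of the 7 genes within groups, and the groups overlapped. Its log2 estimate was -0.04, standard error 0.07 (967 ± 44.2 against 943 ± 64.0 CPM, SD, n = 4 each, edgeR adjusted p = 0.811).

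The 3 large subunits that resemble sodium-proton antiporters, Mt-nd2, Mt-nd4 and Mt-nd5, line up along the membrane arm and take part in proton pumping. Mt-nd2 had 8121, 8297, 9725 and 9804 CPM in Control and 9852, 7426, 8148 and 8929 CPM in HFpEF. Both the highest and the lowest library were HFpEF. Its estimate was the farthest from 0 of the 7, a log2 value of -0.07 with a 95% interval from -0.32 to 0.18 (8987 ± 901 against 8589 ± 1042 CPM, SD, n = 4 each, edgeR adjusted p = 0.793). Mt-nd4 had 11341, 10253, 12736 and 13108 CPM in Control and 13267, 11061, 11495 and 10758 CPM in HFpEF. Control replicate 2 was lowest and HFpEF replicate 1 highest, and the groups covered nearly the same range. Mt-nd4 had a log2 estimate of -0.03, standard error 0.11 (11859 ± 1313 against 11645 ± 1123 CPM, SD, n = 4 each, edgeR adjusted p = 0.920). Mt-nd5, at the far end of the arm, had 12655, 12055, 13836.5 and 14297 CPM in Control and 15501.5, 13043, 12927 and 13286 CPM in HFpEF. HFpEF replicate 1 lay above every Control library, and the other HFpEF libraries lay inside the Control range. For Mt-nd5 the log2 estimate was 0.05, standard error 0.09 (13211 ± 1036 against 13689 ± 1217 CPM, SD, n = 4 each, edgeR adjusted p = 0.809).

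Mt-nd4l and Mt-nd6 are small hydrophobic subunits of the inner part of the membrane arm. Mt-nd4l had 848, 765, 944 and 942 CPM in Control and 1033, 857, 848 and 860.3 CPM in HFpEF. HFpEF replicates 2, 3 and 4 lay close together, and HFpEF replicate 1 lay far above them. The estimate for Mt-nd4l was 0.04 on the log2 scale, standard error 0.09 (875 ± 85.4 against 899.7 ± 89.1 CPM, SD, n = 4 each, edgeR adjusted p = 0.853). Mt-nd4l was also the only one of the 7 with expected counts that were not whole (beyond 0.005), in Control replicate 2 and HFpEF replicates 1, 3 and 4, as RSEM gives when it shares out reads between genes. Such counts occurred in some library for 35.7% of genes of at least 100 mean CPM. Mt-nd6 had 3748, 3566, 4222 and 4279.6 CPM in Control and 4569.6, 3771, 3910.45 and 3839.5 CPM in HFpEF. As in the genes of the other strand, HFpEF replicate 1 was highest and the groups overlapped. The log2 estimate for Mt-nd6 was 0.02, standard error 0.09 (3954 ± 352 against 4023 ± 369 CPM, SD, n = 4 each, edgeR adjusted p = 0.912). No strand setting of the counting is given in the sources used, so reads of Mt-nd6 and reads from the strand opposite to it cannot be told apart.

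**Figure D2:**
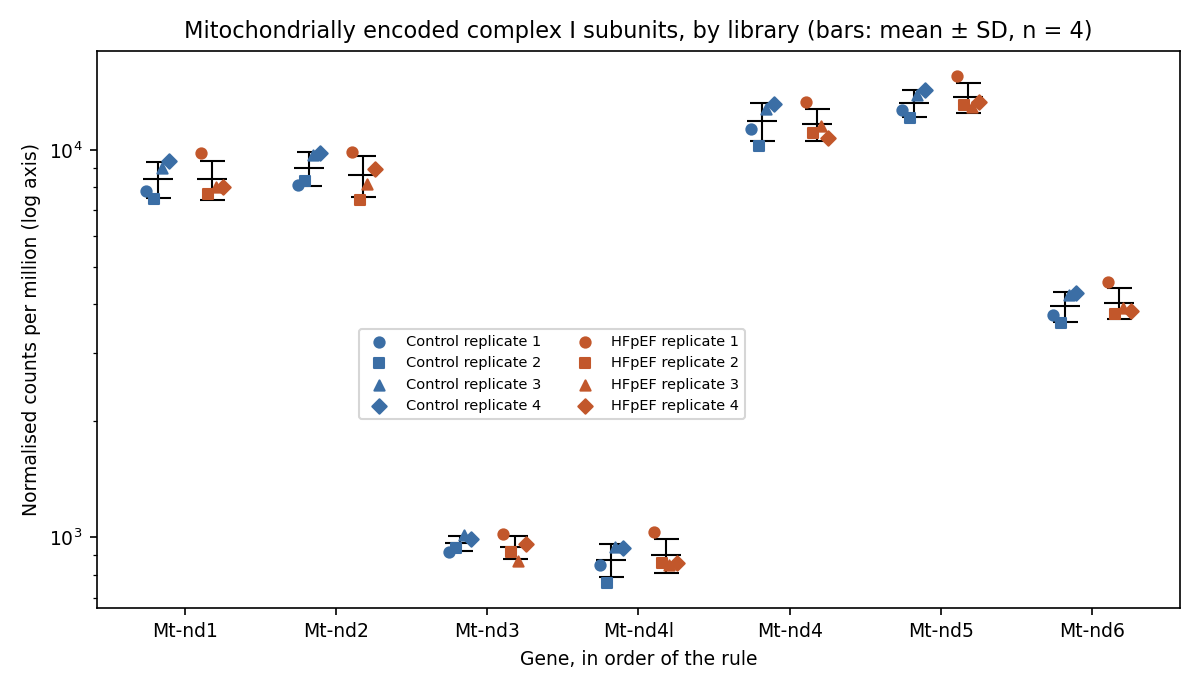
Normalised CPM (log axis) of each gene in each of the 8 libraries, Control in blue and HFpEF in orange, one marker shape per replicate number, which does not pair libraries; bars are the mean and SD of 4 libraries. HFpEF replicate 1 is the highest point in all 7 genes, and the groups overlap in each.

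Leaving out HFpEF replicate 1 put all 7 estimates below 0 without a call, against 4 below 0 in the main fit. They then lay between -0.14 for Mt-nd2 (edgeR adjusted p = 0.511) and -0.01 for Mt-nd5 (edgeR adjusted p = 0.947). For Mt-nd4l, Mt-nd5 and Mt-nd6 this turned the sign. HFpEF replicate 1 held the highest level of all 7 genes, so leaving it out lowered every estimate. Leaving out HFpEF replicate 2 instead put every estimate except that of Mt-nd3 (-0.020) above 0, also without a call. Mt-nd3 alone kept its sign, below 0, in all 19 alternatives, but it passed the test in none of them.

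**Figure D3:**
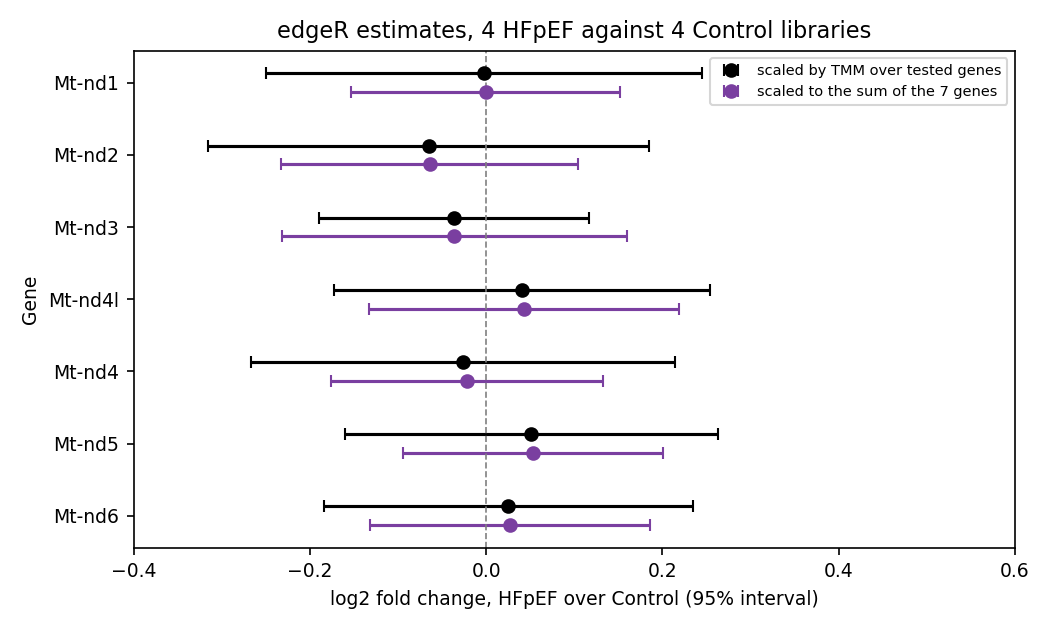
edgeR log2 fold changes (HFpEF over Control, x axis) with 95% intervals for the 7 genes, with libraries scaled by TMM (black) and to the sum of the 7 genes (purple). Every interval includes 0; the widest on the TMM scale is that of Mt-nd2, from -0.32 to 0.18.

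Although the groups did not separate, the 7 genes varied together from library to library. Relative to its average over the 8 libraries, their mean log2 CPM was 0.19 higher in HFpEF replicate 1, 0.12 higher in Control replicate 4 and 0.10 higher in Control replicate 3. On the same scale it was -0.14 in Control replicate 2, -0.09 in HFpEF replicate 2, -0.08 in Control replicate 1, -0.07 in HFpEF replicate 3 and -0.04 in HFpEF replicate 4. Each group thus held libraries on both sides of the average. Within groups the SD of log2 CPM was 0.083 for Mt-nd3 and between 0.12 and 0.16 for the other 6, against a median of 0.11 for the 1319 genes with at least 100 mean CPM. Counting error gave a log2 SD of at most 0.0088 in any of the 7 genes and any library.

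The tightness of this common movement was measured as the SD over the 8 libraries of a gene's log2 CPM minus the mean of the other 6 members. Mt-nd6 followed the other 6 with an SD of 0.025, although it is read from the opposite strand (whether the counting used strand is not known). Mt-nd1 had 0.035, Mt-nd5 0.039 and Mt-nd4l 0.044, and each of these 4 genes stood nearer to the other 6 than did any of the 1312 genes of at least 100 mean CPM outside the set. Mt-nd4 (0.055) ranked 3 of 1313, Mt-nd3 (0.081) ranked 17 and Mt-nd2 (0.084) ranked 36. The genes share libraries and scaling, and their high counts give them little counting error, so the ranks are a description.

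Of genes outside the set, the nearest to the mean of the 7 was ENSRNOG00000031766, with an SD of 0.050 and a mean of 9206 CPM. ENSRNOG00000030700 followed, with an SD of 0.058 and a mean of 10822 CPM. The median over the 1312 genes was 0.17. The files do not pair these identifiers with names, so other mitochondrially encoded genes could not be picked out among the 1312. Whether the common movement is particular to these 7 genes was not tested.

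**Figure D4:**
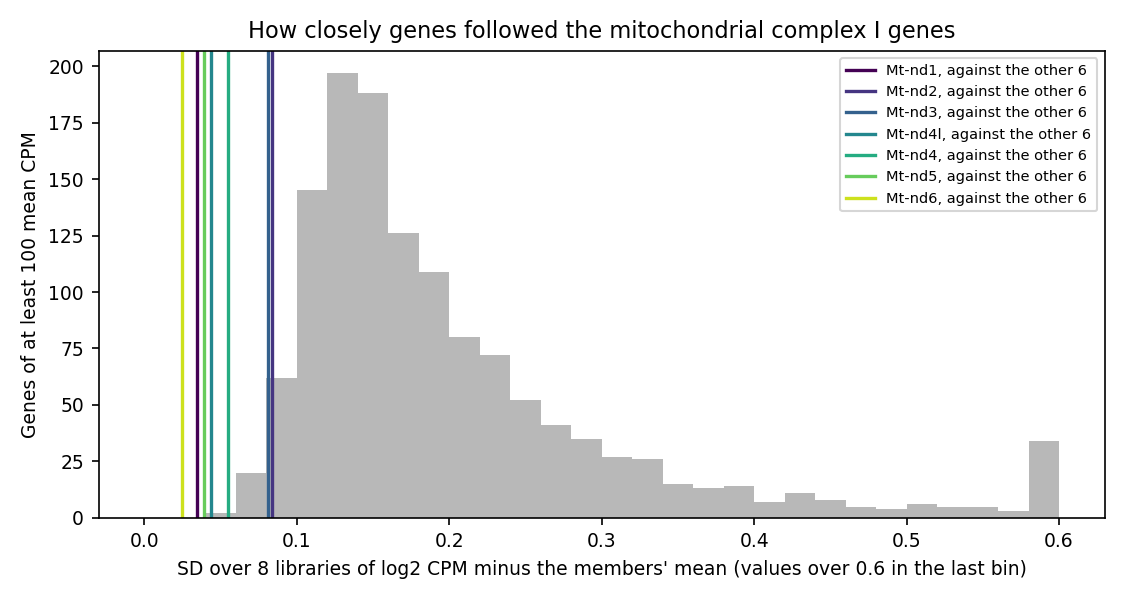
Histogram of the SD over 8 libraries of log2 CPM minus the mean of the 7 genes, for the 1312 other genes of at least 100 mean CPM; coloured lines give each of the 7 genes against the mean of the other 6. The lines lie between 0.025 (Mt-nd6) and 0.084 (Mt-nd2), to the left of the median of 0.17.

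The balance among the 7 genes does not depend on the scaling factor, which cancels in a share. The 7 shares have a fixed sum, so a lower share of any gene raises those of others. Whether the balance varied with library size was not tested. In Control, Mt-nd6 made up 8.20% ± 0.0619 of their summed counts, and in HFpEF 8.35% ± 0.107 (SD, n = 4 each). Its share ran only from 8.11% in Control replicate 4 to 8.46% in HFpEF replicate 3, the smallest relative spread of the 7 (coefficient of variation 1.40%). The Mt-nd6 difference of 0.156 percentage points exceeded both SDs, and stayed between 0.119 and 0.196 whichever library was dropped. The groups still met at their edges, with 8.25% as the highest Control and 8.23% as the lowest HFpEF value. The share of Mt-nd1 was 17.4% ± 0.248 in Control, against 17.4% ± 0.305 in HFpEF (SD, n = 4 each). Mt-nd4 made up 24.5% ± 0.603 in Control and, in HFpEF, 24.2% ± 0.819, while Mt-nd3 went from 2.01% ± 0.122 to 1.96% ± 0.106 and Mt-nd4l from 1.81% ± 0.0463 to 1.87% ± 0.0351 (SD, n = 4 each). In Mt-nd4l the difference of 0.0550 percentage points also exceeded both SDs, but the ranges overlapped (1.77% to 1.87% and 1.84% to 1.91%).

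Mt-nd5 was the only gene of the 7 whose share of the set did not overlap between the groups, and it is singled out after its values were seen. Its share of the 7 was 27.8%, 27.8%, 26.9% and 27.1% in Control replicates 1 to 4 and 28.1%, 29.1%, 28.0% and 28.5% in HFpEF replicates 1 to 4. All HFpEF libraries were higher, and the nearest values were 27.84% and 27.97%. The highest share was in HFpEF replicate 2, the library with the fewest counts (31774820). The lowest was in Control replicate 3, the library with the most (38889395). HFpEF replicates 2, 3 and 4 held fewer counts than every Control library. HFpEF replicate 1 held 37180059 counts, more than Control replicates 1, 2 and 4, and its share was also above every Control library. The part of library size in this separation was not tested. Control averaged 27.4% ± 0.491 of the set and HFpEF 28.4% ± 0.505 (SD, n = 4 each), a difference of 1.02 percentage points that was 1.12 without HFpEF replicate 1. Count ratios to single members were compared as the mean log2 ratio, HFpEF minus Control. This was -0.118 for Mt-nd2 to Mt-nd5, -0.0887 for Mt-nd3 to Mt-nd5 and -0.0749 for Mt-nd4 to Mt-nd5. It was -0.0538 for Mt-nd1 to Mt-nd5, -0.00964 for Mt-nd4l to Mt-nd5 and 0.0258 for Mt-nd5 to Mt-nd6. The groups overlapped in each ratio, so Mt-nd5 did not separate against any single member. Among all tested genes, 6.57% did not overlap in their ratio to the sum of the 7. Mt-nd5 is itself part of that sum and nearly all tested genes are not, so this background is not fully like its share. In the edgeR fit with libraries scaled to that sum, an alternative chosen after seeing the data, the log2 fold change of Mt-nd5 was 0.05 with a 95% interval from -0.09 to 0.20 (edgeR adjusted p = 0.853). That fit draws a gene's spread in part from other genes, and its standard errors were alike in all 7, from 0.067 to 0.089. It could hardly call a log2 shift as small as 0.05, so it does not decide whether the separation in share is real. It called 0 of the 7 genes and 0.613% of tested genes.

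Mt-nd2 had the widest range of share in percentage points. It made up 17.9%, 19.1%, 18.9% and 18.6% of the set in Control replicates 1 to 4 and 17.9%, 16.6%, 17.6% and 19.1% in HFpEF replicates 1 to 4. The lowest value was in HFpEF replicate 2, which also had the highest share of Mt-nd5, and HFpEF replicate 4 matched the highest Control library. Shares of the set have a fixed sum, so the Mt-nd2 and Mt-nd5 shares of a library are not independent. The Control mean of 18.6% ± 0.552 and the HFpEF mean of 17.8% ± 1.05 (SD, n = 4 each) differed by -0.809 percentage points, more than the Control SD and less than the HFpEF SD. With HFpEF replicate 2 left out the difference was -0.399, and with HFpEF replicate 4 left out it was -1.25. The log2 fold change relative to the set was -0.06 (edgeR adjusted p = 0.841).

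Control replicate 2 and HFpEF replicate 4 resembled each other in their balance across the groups. Mt-nd4 was lowest in these libraries, at 23.7% and 23.1% of the set, against 24.1% to 25.0% in the other 6. Mt-nd2 (19.1% in both) and Mt-nd3 (2.17% and 2.06%) were at their highest there. These were also the libraries with the highest TMM factors, 1.034 and 1.049, against 0.9488 to 1.028 in the others. The factor itself cancels in a share of the 7.

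**Figure D5:**
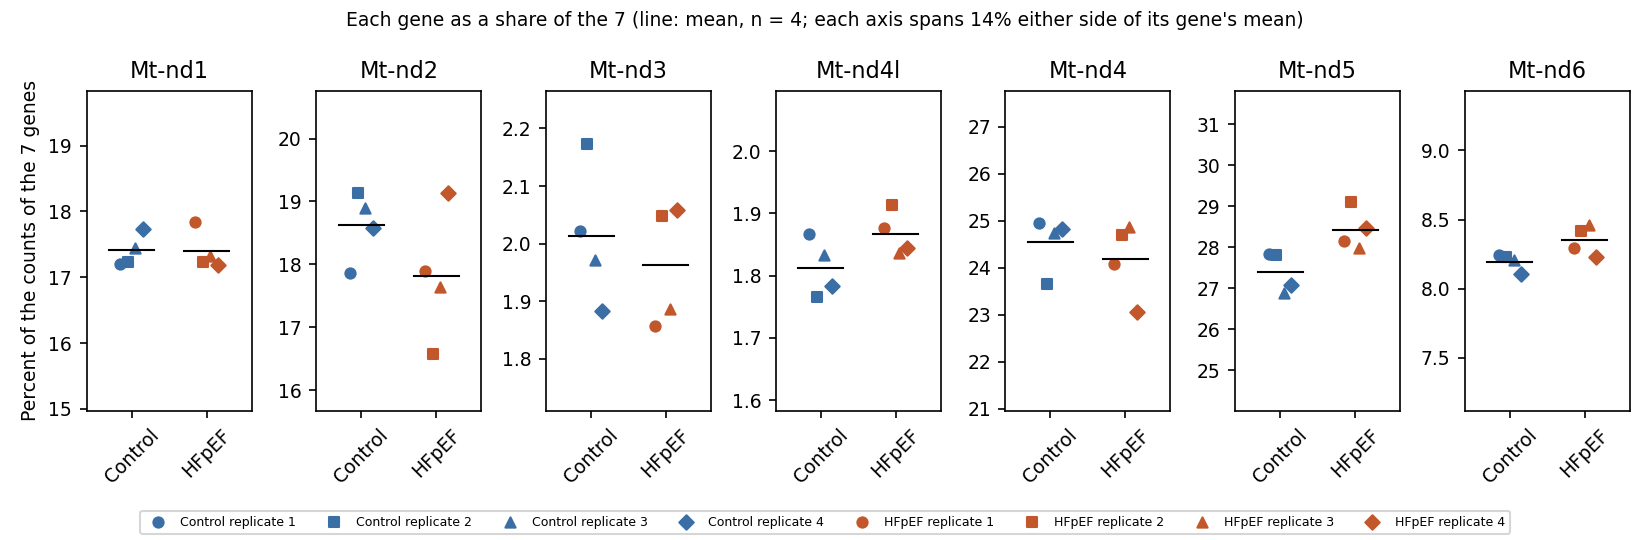
Each gene's percent of the summed counts of the 7 genes, by library, with the mean of 4 as a line; every panel's axis spans the same relative range around its gene and does not start at 0. Mt-nd5 alone shows no overlap (Control 26.9% to 27.8%, HFpEF 28.0% to 29.1%), and Mt-nd2 and Mt-nd3 scatter more than Mt-nd6.

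Count ratios were also taken between pairs of the 7 genes. In 0 of 21 pairs did the count ratio separate the groups, where 14.4% of all pairs of genes with at least 100 mean CPM did. The 21 pairs reuse the same 7 genes, which varied together, so they are not independent and the count is a description. The steadiest pair was Mt-nd5 with Mt-nd6, which are neighbours on opposite strands of the mitochondrial genome. Their count ratio ran from 3.28 in Control replicate 3 to 3.46 in HFpEF replicate 4 (SD of the log2 ratio 0.028). Mt-nd4l and Mt-nd4, which share a messenger RNA, had a ratio between 0.0718 in Control replicate 4 and 0.0800 in HFpEF replicate 4 (SD 0.050), so they were not the tightest pair. The loosest was Mt-nd3 with Mt-nd4, whose ratio ran from 0.0758 in Control replicate 4 to 0.0919 in Control replicate 2 (SD 0.11), both extremes being Control libraries.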

How the data were processed

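RNA was sequenced from 8 sinoatrial node libraries after ribosomal RNA depletion, per the labels' protocols. The authors deposited expected counts per gene, with no normalization, as a single table. The submitters' processing notes name Bowtie2 2.1.0, RSEM 1.2.15 and build rn6. No annotation release or strand setting is given in the sources used. Groups came from the library titles.

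Expected counts were rounded, filtered with filterByExpr (16313 genes with 99.95% of counts) and scaled by TMM. The groups were compared (HFpEF over Control) by the quasi-likelihood test of edgeR 4.0.16 (R 4.3.3), two-sided, with Benjamini-Hochberg adjustment over all tested genes and a threshold of 0.05. Standard errors came from its F statistic. The test was tried on simulated counts. A count of 0 would allow up to 3 counts, covering counting error only. The members, lists and tests were chosen with earlier results of these data known. All 7 members were named in full, and of genes most like them the 2 nearest by identifier, since 0 of 32285 identifiers matched the reference table. Gene lists, lengths and sequences were therefore not used. DESeq2 1.42.0, limma-voom (limma 3.58.1), other scalings and filters, a replicate block and leaving out each library were alternatives. Scaling to the members' sum was added after seeing the data.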

Additional observations from a re-analysis of the deposited data

Results flagged for a closer look

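In groups of 4, a library was marked when its gap to the next, divided by the group's range, exceeded Dixon's 95% critical value, which chance does in about 1 in 20 groups; 4 of 30 sets were marked, and the sets vary together. HFpEF replicate 1 stood above the other HFpEF libraries in normalised CPM of Mt-nd1 (gap over range 0.856), Mt-nd4l (0.936) and Mt-nd5 (0.860). In Control, replicate 2 stood below the others in the share of the 7 genes held by Mt-nd4 (0.845).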

How the results depend on the processing

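In all 19 alternatives 0 of 7 genes were called. Of 133 gene estimates 114 kept their sign and 19 did not, all near 0, and the lowest adjusted p was 0.511. Mt-nd1 turned positive with DESeq2 (0.00026), RLE scaling (0.00026) and the stricter filter (0.0024). Without each library in turn, log2 fold changes ran from -0.0875 to 0.0527 for Mt-nd1, -0.138 to 0.00227 for Mt-nd2, -0.0779 to -0.0012 for Mt-nd3, -0.0324 to 0.0786 for Mt-nd4l, -0.0948 to 0.0250 for Mt-nd4, -0.0137 to 0.0912 for Mt-nd5 and -0.0421 to 0.0647 for Mt-nd6. The difference in summed share ran from -0.272 to 0.0681 percentage points, and was 0.0193 without the 10 most counted other genes, always within the spread. The background of 316 called genes was 1248 with DESeq2, 169 with library totals alone, 100 scaled to the members' sum and 22 to 332 without 1 library; the cause was not tested. The replicate block gave 6 called genes and 0 of 7 members. Same-numbered libraries deviated with correlations of -0.0221, -0.0564, 0.0683 and -0.162, and the same-numbered library was the best match for 2 of 8, so no pairing was assumed. A level per coding length was not run, having no lengths.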
